A study of Mus musculus with 6 samples.

Results

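The genes described here are the neurofilament subunit genes Nefl, Nefm and Nefh, the related filament gene Ina, and the stathmin genes Stmn1, Stmn2, Stmn3 and Stmn4, 8 of the 19505 genes measured. They were picked by name, with their levels and differences in this comparison already known, from an array study of mouse fibrosarcoma cells, a malignant tumor of fibroblast-like cells. On a C57BL/6 background, all samples had the Q72L mutant of Rras2, which encodes a small GTPase related to RAS. Controls (replicates 1 to 3) received the pLKO vector alone and knockdown cells (shRras2, replicates 4 to 6) the Rras2-directed shRNA sh#89, both by transduction, with 1 array per sample. The question was how gene expression in these mutant tumor cells changes once Rras2 is knocked down. The labels do not state whether the cells are 1 clone or whether replicates were separate cultures, so the p-values reflect the spread among these arrays alone and that spread may be technical. A single shRNA was used, and effects on other targets cannot be told apart from the loss of Rras2.

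Neurofilaments are the intermediate filaments of nerve axons. The light chain NEFL forms the core of the filament, the medium and heavy chains NEFM and NEFH add long tails that project from it, and alpha-internexin, the product of Ina, can assemble with them or alone. Stathmins are small phosphoproteins that bind tubulin dimers and promote the shortening of microtubules, and phosphorylation weakens that binding. Stmn1 is found in many dividing cells, while Stmn2, also known as SCG10, Stmn3 and Stmn4 carry an added membrane-anchoring part and are best known from neurons.

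Levels are log2 signals per probe set, and 1 unit is a 2-fold difference. Each of the 8 genes had 1 probe set. Signals of different probe sets depend on their probes, so each gene was compared only between arrays. The files hold no detection calls, and the 95th percentile of the 5222 negative-control probe sets, 7.92, served as a guide to the dim range, where differences are compressed. Stmn1 and Stmn2 lay above 7.92 on all 6 arrays, and Nefl, Ina and Stmn4 on 0. Nefm was above it on 3 arrays, Nefh on 4 and Stmn3 on 5.

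Rras2 stood at 10.74 ± 0.08 on the control arrays and 9.33 ± 0.32 on the knockdown arrays (SD, n = 3 each; limma adjusted p = 0.00163). Of 16 measured fibroblast markers 10 lay above 7.92 on all 6 arrays, against 7586 of all 19505 genes, and 6 had both group means below it. Above 7.92 on all 6 arrays were also 3 of 22 skeletal muscle markers. The count was 0 of 10 for epithelial, 0 of 8 for endothelial and 0 of 8 for leukocyte markers. Of the fibroblast markers 6 rose and 0 fell, but only 3 passed without control replicate 1, and 1 each without control replicate 3 or knockdown replicates 4 or 6. None of the epithelial, endothelial or leukocyte markers passed limma's threshold, and 0, 3 and 1 of them had an unadjusted p under 0.05. Across all genes 1017 (5.21%) passed a limma adjusted p of 0.05, 584 (2.99%) higher and 433 (2.22%) lower in the knockdown, or 506 and 567 with each array centred on its median. Leaving out control replicate 1, 2 or 3 gave 463, 589 or 427 such genes, and leaving out knockdown replicate 4, 5 or 6 gave 392, 1136 or 431.

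The 8 genes split within both families. In the knockdown Nefm and Nefl were lower, Stmn2 was higher by a wide margin and Stmn1 by a small one, and Nefh, Ina, Stmn3 and Stmn4 overlapped between the groups. The groups did not overlap for 4 of the 8 genes, against 25.5% of all genes. Of these 4, 2 were higher (11.6% of all genes) and 2 lower (13.9%). A difference of at least 2-fold was seen for 3 of the 8, against 0.728% of all genes, with 1 higher (0.615%) and 2 lower (0.113%). These differences were in view when the genes were picked, so they are given as a description, with no test.

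**Figure D1:**
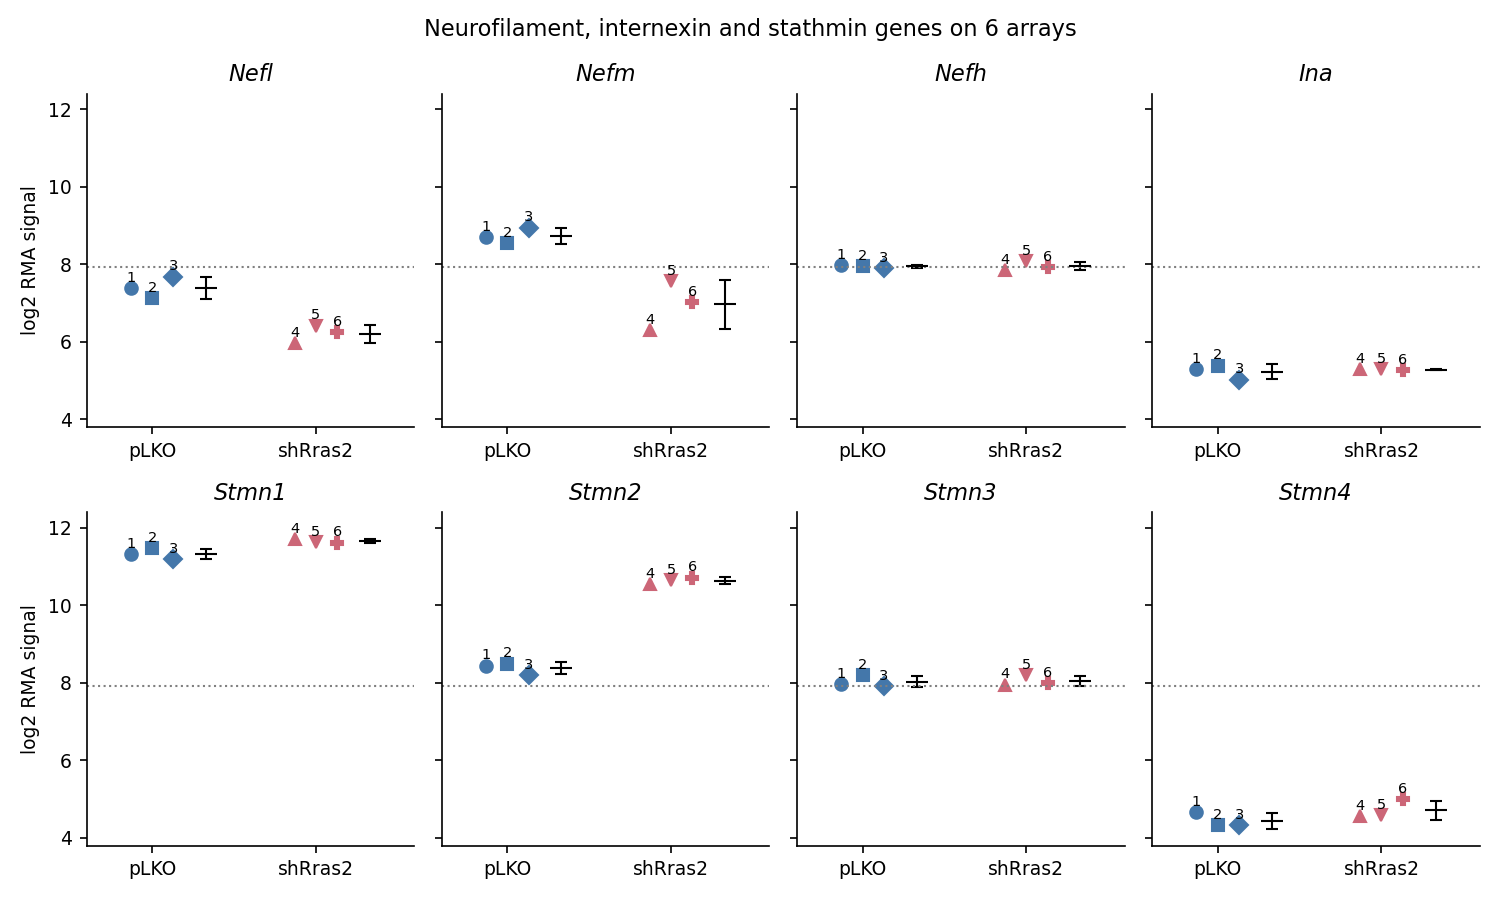
Log2 RMA signal of the 8 genes on each of the 6 arrays, with replicate numbers beside the points (pLKO blue, shRras2 red) and the group mean ± SD in black. The dotted line is the 95th percentile of the negative controls (7.92); Nefm and Nefl are lower and Stmn2 is higher on every knockdown array than on any control, and Nefh, Ina and Stmn3 overlap.

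Nefm, the medium neurofilament chain, gave 8.69, 8.54 and 8.94 on control arrays 1, 2 and 3 and 6.29, 7.57 and 7.03 on knockdown arrays 4, 5 and 6. The lowest control lay 0.97 above the highest knockdown array. The group means were 8.72 ± 0.20 and 6.96 ± 0.64 (SD, n = 3 each), and the log2 difference, knockdown minus control, was -1.76 ± 0.27 (SE), or 3.39-fold lower. Only 1 of the 19505 genes had a more negative difference. All 3 controls were above the dim range and all 3 knockdown arrays inside it, so the fold is imprecise. The knockdown arrays were spread over 1.28 log2 units, and the pooled SD within groups (0.48) was larger than that of 99.6% of genes.

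Nefl, the light chain, gave 7.38, 7.12 and 7.68 on the controls and 5.96, 6.42 and 6.26 on the knockdown arrays. Again every knockdown array lay below every control, with a gap of 0.70. The means were 7.39 ± 0.28 and 6.21 ± 0.23 (SD, n = 3 each), a difference of -1.18 ± 0.16 (SE), 2.27-fold lower. All 6 values lay in the dim range, and 17 genes had a more negative difference.

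Within each group Nefl and Nefm ranked the arrays alike. Among the controls both were highest on replicate 3 and lowest on replicate 2, and among the knockdown arrays both were highest on replicate 5 and lowest on replicate 4. Relative to the control mean on the linear scale, Nefm stood at 18.5%, 44.9% and 31.0% on knockdown arrays 4, 5 and 6. Nefl stood at 37.1%, 50.9% and 45.6%. Rras2 stood at 31.8%, 48.1% and 34.6% on the same arrays, so the array with the most Rras2 signal left was also the one with the most Nefm and Nefl. Among the controls Rras2 was also highest on replicate 3 but lowest on replicate 1, where Nefm and Nefl were lowest on replicate 2. With 3 knockdown arrays this order is a description only. Replicate 5 was also the only array whose removal raised the count of genes past the threshold (1136, against 1017 with all arrays). Without knockdown replicate 5 the log2 difference of Nefm was -2.06, and without replicate 4 it was -1.42.

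**Figure D2:**
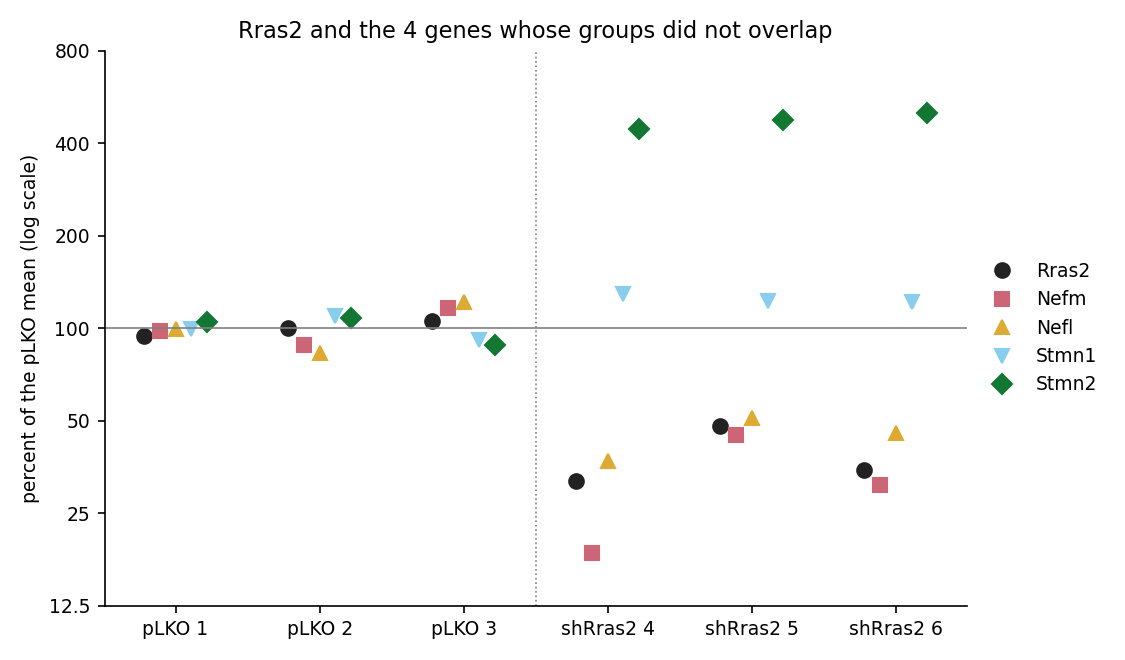
Signal of Rras2 and of the 4 genes whose groups did not overlap, as a percent of each gene's control mean on a log scale, by array. On the knockdown arrays Nefm and Nefl lie between 18.5% and 50.9%, Stmn1 between 122% and 130% and Stmn2 between 446% and 502%.

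The other 2 filament genes did not separate the groups. Nefh, the heavy chain, gave 7.97, 7.95 and 7.90 on the controls and 7.86, 8.07 and 7.92 on the knockdown arrays. The knockdown values bracketed the controls, and the difference was 0.01 ± 0.08 (SE; 95% interval -0.18 to 0.20). Ina gave 5.29, 5.38 and 5.03 on the controls and 5.29, 5.30 and 5.27 on the knockdown arrays, near the middle of the negative controls. Its difference was 0.05 ± 0.10 (95% interval -0.18 to 0.28), and at that signal a change could be missed.

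Stmn2 had the largest difference of the 8 genes. It gave 8.44, 8.50 and 8.20 on the controls and 10.54, 10.63 and 10.71 on the knockdown arrays. The groups lay 2.04 log2 units apart, while the controls spanned 0.29 and the knockdown arrays 0.17. The means were 8.38 ± 0.16 and 10.63 ± 0.09 (SD, n = 3 each), a difference of 2.25 ± 0.10 (SE), 4.75-fold higher, and 13 of the 19505 genes had a larger positive difference. The knockdown arrays stood at 446%, 477% and 502% of the control mean. Replicate 5, on which Nefm, Nefl and Rras2 were nearest the controls, was the middle one for Stmn2.

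Stmn1, the stathmin of dividing cells, gave 11.32, 11.46 and 11.19 on the controls and 11.70, 11.62 and 11.61 on the knockdown arrays. The groups did not overlap, but the gap was 0.15, smaller than the control range of 0.27. The difference was 0.32 ± 0.09 (SE), 1.25-fold higher. It lay inside the range of -0.39 to 0.51 that held the central 95% of all genes, and 1066 of the 19505 genes had a larger positive difference. Among 18 measured proliferation markers 0 passed limma's threshold, 1 had an unadjusted p under 0.05, and the median difference was 0.03. The division marker Mki67 was 12.41 ± 0.07 and 12.46 ± 0.08 (limma adjusted p = 0.844).

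Stmn3 gave 7.97, 8.20 and 7.92 on the controls and 7.95, 8.19 and 7.98 on the knockdown arrays, so the 2 groups covered almost the same range. The difference was 0.01 ± 0.10 (SE; 95% interval -0.23 to 0.25). Stmn4 gave 4.67, 4.33 and 4.32 on the controls and 4.55, 4.58 and 5.00 on the knockdown arrays. The groups overlapped through control replicate 1, and the difference was 0.27 ± 0.14 (95% interval -0.05 to 0.60). Both group means of Stmn4 lay below the median of the negative controls (5.02).

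**Figure D3:**
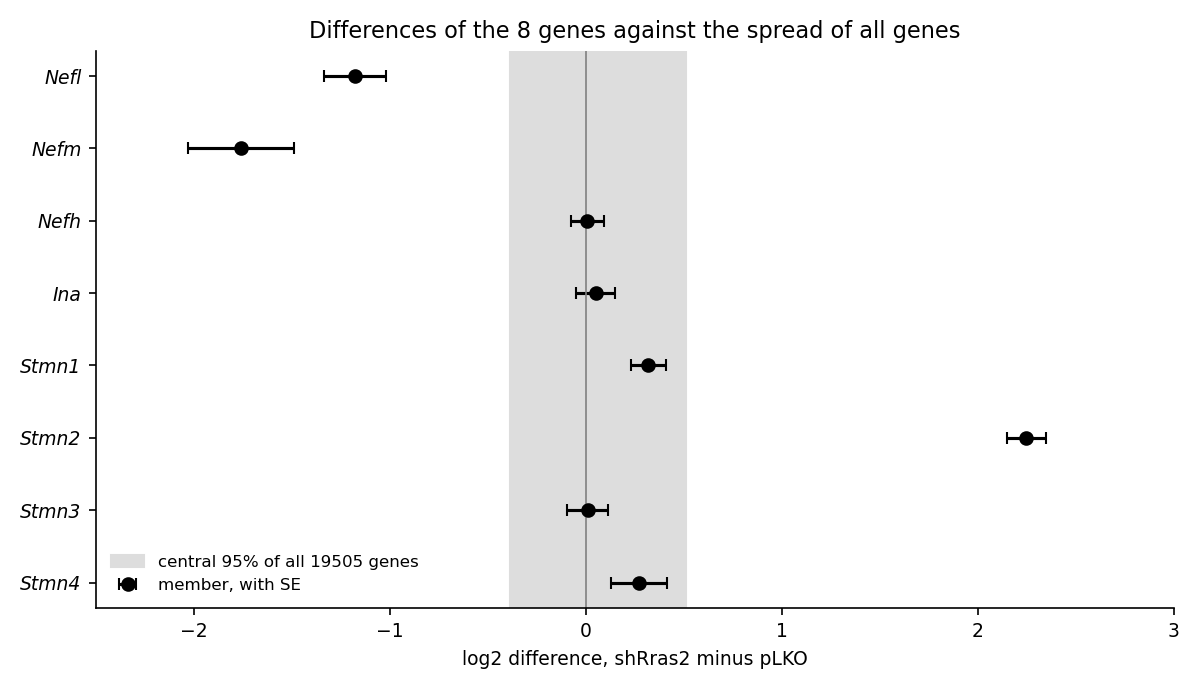
Log2 difference between knockdown and control for each of the 8 genes, with its SE. The grey band from -0.39 to 0.51 holds the central 95% of all 19505 genes; Nefm, Nefl and Stmn2 lie outside it and the other 5 genes inside.

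Other intermediate filament genes were read from a list beside Nefm and Nefl. Of 18 measured genes 2 passed the threshold higher and 0 lower, against 2.99% and 2.22% of all genes. The list's median was -0.00, against -0.01 for all genes. Des, the muscle filament desmin, rose from 5.45 ± 0.08 to 7.11 ± 0.49 (SD, n = 3 each; limma adjusted p = 0.00336) within the dim range. It passed in all 6 fits without 1 array. Sync, which encodes the desmin partner syncoilin, rose by 0.41 (limma adjusted p = 0.0316) but passed without 1 array only when control replicate 3 was left out (adjusted p = 0.0495), and reached 0.11 without knockdown replicate 4. Vim, the main filament gene of fibroblasts, was 13.84 ± 0.03 and 13.79 ± 0.05. Nes, the nestin gene of precursor cells, differed by 0.15 ± 0.09 (SE), the lamin gene Lmna by -0.10 ± 0.08 and Prph, which encodes the peripheral-neuron filament peripherin, by -0.01 ± 0.10. None of these 4 passed (limma adjusted p from 0.389 to 0.986). Of 12 genes for filament linkers and turnover, only the small heat shock protein gene Cryab passed. It rose by 0.55 (limma adjusted p = 0.0383), and of the fits without 1 array passed only in that without knockdown replicate 5 (adjusted p = 0.0084; up to 0.138 in the others), when the list's count was 2.

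Tubulin is what stathmins bind. Of 19 tubulin genes 2 rose and 0 fell (median -0.06), against 2.99% and 2.22% of all genes. Tubb3, the beta-tubulin used as a neuronal marker, rose from 8.70 ± 0.13 to 9.79 ± 0.26 (SD, n = 3 each; 2.12-fold, limma adjusted p = 0.00336) and passed in all 6 fits without 1 array. Tubb2a rose by 0.49 (limma adjusted p = 0.0254). Of the fits without 1 array it passed only without knockdown replicate 5 (adjusted p = 0.0169, up to 0.0983 in the others). In that fit 4 tubulin genes passed, 3 higher and 1 lower. Tubb6 differed by -0.17 ± 0.08 (SE) and did not pass (limma adjusted p = 0.301).

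Among 37 microtubule-associated proteins 4 rose and 1 fell (median 0.06), against 2.99% and 2.22% of all genes. Dclk1, a microtubule-binding kinase of the doublecortin family, rose from 7.66 ± 0.21 to 8.70 ± 0.22 (SD, n = 3 each, limma adjusted p = 0.00493). Its control mean lay in the dim range, so the size of the rise is imprecise. Dpysl2, also known as CRMP2, which binds tubulin dimers and favours microtubule growth, fell from 11.62 ± 0.02 to 11.07 ± 0.06 (limma adjusted p = 0.00505). Both passed in all 6 fits without 1 array. The others that rose were Map1a by 0.84 and Tppp3 by 0.54, both in the dim range, and Map6, a microtubule stabilizer, by 0.37. Map1a did not pass without control replicates 2 or 3 or knockdown replicate 6 (limma adjusted p = 0.0531, 0.0633 and 0.0521). Tppp3 passed only without control replicate 3 or knockdown replicate 5 (limma adjusted p = 0.0421 and 0.0315; up to 0.103 in the others). Map6 passed only without control replicate 3 (limma adjusted p = 0.0481; up to 0.15 in the others). Map2, the microtubule protein of dendrites, differed by 0.33 ± 0.11 (SE), Map1b by -0.28 ± 0.10 and the tau gene Mapt by 0.06 ± 0.14, and none of these 3 passed (limma adjusted p = 0.124, 0.174 and 0.86).

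Kinases and phosphatases that act on stathmins or neurofilaments gave 0 rises and 1 fall among 24 measured genes (median 0.06). Of all genes 2.99% passed higher and 2.22% lower. Mapk9, which encodes the kinase JNK2, fell by 0.33 (limma adjusted p = 0.0464). Of the fits without 1 array it passed only without knockdown replicate 5 (adjusted p = 0.0489, up to 0.157 in the others). In that fit 3 genes of the list passed, 2 higher and 1 lower. The REST complex represses neuronal genes in other cells. Of 17 genes for it and for RNA-binding regulators, 1 rose and 0 fell (median 0.10), against the same shares of all genes. It was Rcor3, a REST corepressor gene (0.36 ± 0.08, SE; limma adjusted p = 0.0331), which passed in none of the 6 fits without 1 array (adjusted p 0.0625 to 0.129). Rest was 10.26 ± 0.07 and 10.36 ± 0.11 (SD, n = 3 each; limma adjusted p = 0.619). Tardbp, which encodes TDP-43, an RNA-binding protein known to keep STMN2 transcripts of human neurons correctly spliced, differed by -0.12 ± 0.08 (SE; limma adjusted p = 0.461).

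**Figure D4:**
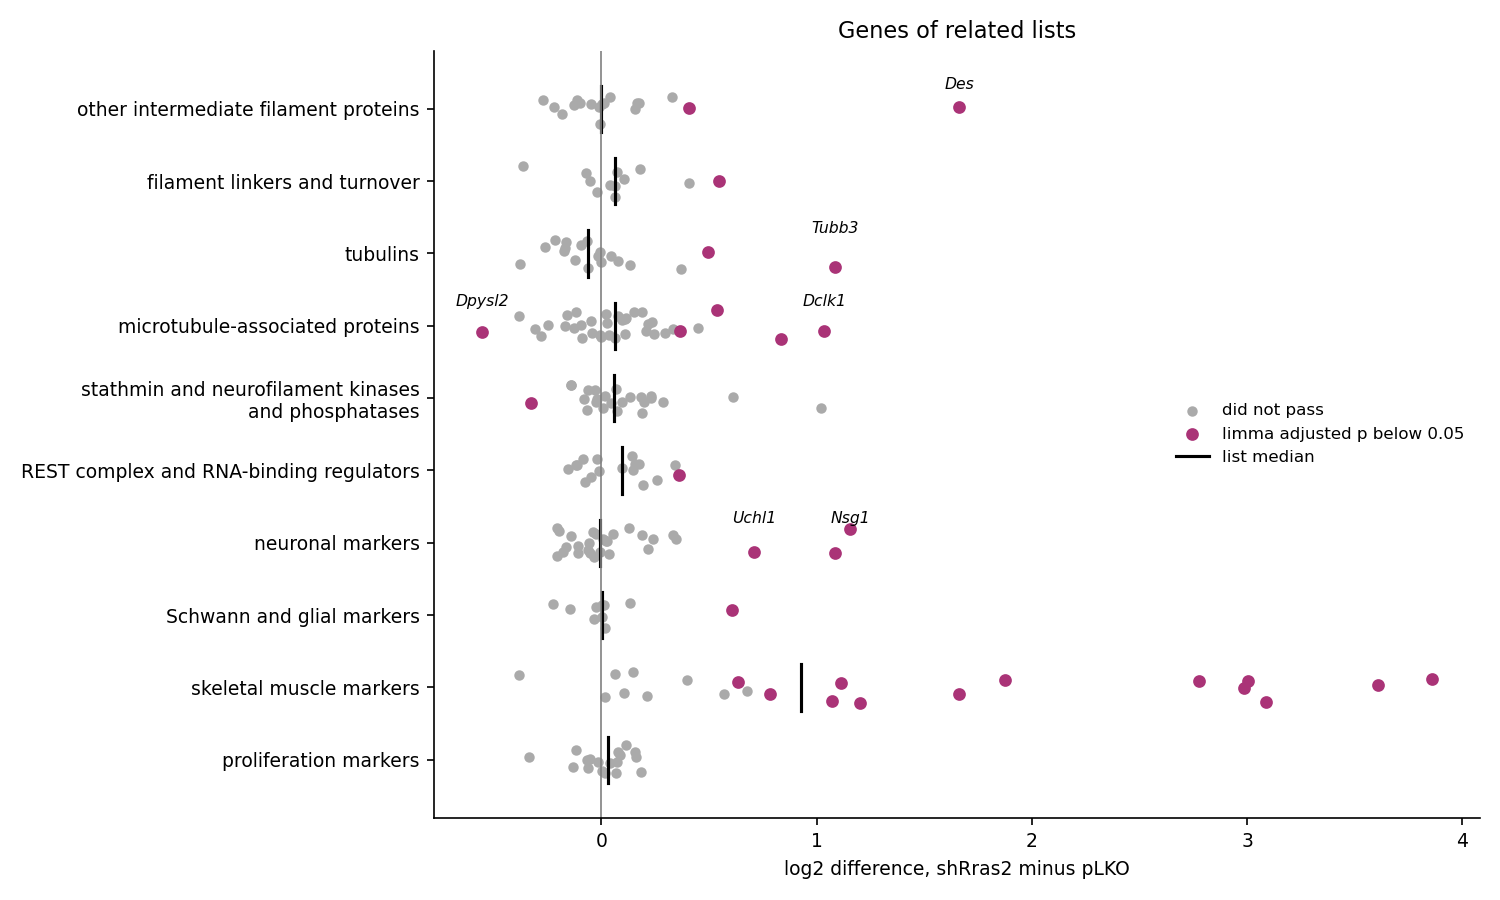
Log2 difference between knockdown and control for every measured gene of 10 lists; each point is a gene, purple where the limma adjusted p was below 0.05, and the black bar is the list median. Medians of the filament, tubulin and microtubule lists lie between -0.06 and 0.06, while the skeletal muscle median is 0.93.

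Since Nefl, Nefm and Stmn2 are known from neurons, markers of neurons and glia were read beside them. Of 29 measured neuronal markers 21 lay in the dim range in both groups. Of the 29, 3 rose and 0 fell (median -0.01), against 2.99% and 2.22% of all genes. The 3 were Tubb3, Nsg1, an endosomal protein gene of neurons, which rose from 7.78 ± 0.13 to 8.93 ± 0.15 (SD, n = 3 each; limma adjusted p = 0.00094), and the ubiquitin hydrolase gene Uchl1, which rose from 8.96 ± 0.06 to 9.67 ± 0.01 (limma adjusted p = 0.00177). All 3 passed in every fit without 1 array. The control mean of Nsg1 lay in the dim range, so the size of its rise is imprecise. The growth cone gene Gap43 differed by 0.35 ± 0.09 (SE) in the dim range and did not pass (limma adjusted p = 0.0636). Above 7.92 on all 6 arrays were 5 of the 29, namely Tubb3, Uchl1, Map2, the synapsin gene Syn1 and the adhesion gene Ncam1, while the neuronal genes Rbfox3, Snap25, Syp and Elavl4 were dim on every array. The summed signal of the list was 13.20 to 13.25 on the controls and 13.45 to 13.52 on the knockdown arrays (log2 of the sum). Of 10 Schwann and glial markers Egr2, which also responds to growth signals, rose by 0.61 (limma adjusted p = 0.0144) and 0 fell. Egr2 and Cnp (8.12 ± 0.04 and 8.13 ± 0.01, SD, n = 3 each) were the 2 of the 10 above 7.92 on all 6 arrays. In both groups 8 had means in the dim range, and of these Sox10 and S100b were dim on all arrays. Egr2 did not pass without control replicate 1 or knockdown replicates 4 or 6 (limma adjusted p = 0.0614, 0.0663 and 0.0655). That list's summed signal was 10.37 to 10.47 on the controls and 10.52 to 10.68 on the knockdown arrays.

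Skeletal muscle markers moved with the groups as well. Of 22 measured 13 rose and 0 fell (median 0.93), against 2.99% and 2.22% of all genes, and 10 had both group means in the dim range. Without 1 array 11 to 17 passed. Without knockdown replicate 5, 16 were higher and 1 lower, and with median centring 13 and 1. Their summed signal was 11.81 to 11.88 on the controls and 12.96 to 13.62 on the knockdown arrays. Their part in the values of Stmn2, Nefm and Nefl was not tested. In bulk RNA, fewer cells of a type and less RNA per cell cannot be told apart.

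For the 3 genes that differed between the groups and were bright enough, the genes with the most similar profile over the 6 arrays were sought among 8191 named genes whose brighter group had a mean above 7.92; the other group could be dim. Likeness was the root mean square difference between log2 profiles, each centred on its own mean. For Stmn2 they were Gas6, a ligand of the TAM receptors (0.10), the proteoglycan-cleaving Adamts5 (0.23) and Rgs4, a regulator of G-protein signalling (0.25). For Nefm they were the urea transporter gene Slc14a1 (0.15), the proliferin gene Prl2c3 (0.25) and Apcdd1, a WNT inhibitor gene (0.25). Prl2c3 has near-identical copies that its probes may not separate. Gas6 ran from 7.37 ± 0.26 to 9.50 ± 0.02 and Slc14a1 from 10.21 ± 0.23 to 8.52 ± 0.43 (SD, n = 3 each). For Stmn1 they were the histone variant gene H2az2, the transcription factor gene Tead2 and the co-chaperone gene Dnajb4 (0.03 to 0.04). Of the genes listed for Stmn2 and Nefm, only Slc14a1 had both group means above 7.92; Gas6, Adamts5 and Rgs4 were dim in the controls and Prl2c3 and Apcdd1 in the knockdown. The search favours genes with a difference between the groups of like size and direction. Profiles were not scaled to the size of their differences, so the values for Stmn1 cannot be set beside those for Stmn2 and Nefm. The likeness is a description with no test.

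Nefl and Nefm are next to each other among the measured genes of chromosome 14 in the RefSeq order of GRCm38.p6. The neighbours of all 8 genes, up to 3 measured genes on each side, were looked up after the values were seen. Dock5, on the other side of Nefl, fell by 0.49 (limma adjusted p = 0.0306), and when arrays were left out in turn it passed only without knockdown replicate 5 (adjusted p = 0.00898, with values up to 0.118 in the others). Adam7, on the other side of Nefm, was dim and differed by 0.07 ± 0.09 (SE; limma adjusted p = 0.77). Il7, the cytokine gene next to Stmn2 on chromosome 3, rose from 8.65 ± 0.09 to 9.57 ± 0.19 (SD, n = 3 each; limma adjusted p = 0.00275) and passed in all 6 fits without 1 array. Hey1, on the other side of Stmn2, differed by 0.52 ± 0.16 (SE) and did not pass (limma adjusted p = 0.104). Kctd9, 3 measured genes from Nefl, rose by 0.35 where Nefl fell (limma adjusted p = 0.0324). It passed in 0 of the 6 fits without 1 array. Atp5md, 3 measured genes from Ina, fell by 0.66 (limma adjusted p = 0.00293), and Dpysl2, next to Stmn4, fell as given above. Nf2, 3 measured genes from Nefh, fell by 0.41 (limma adjusted p = 0.0239) and passed in 2 of the 6 fits without 1 array.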

How the data were processed

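Total RNA from 6 samples was hybridized to Affymetrix arrays as biotin-labelled cRNA, per the labels' protocols. The authors deposited a log2 signal for each probe set. The submitters' processing notes name RMA, which corrects background, quantile normalizes and summarizes probes, and R 3.6.3. For the RMA package version and filters, the sources used here give nothing. Of 22206 transcript probe sets 19572 had 1 gene symbol, and the brightest probe set per gene left 19505 genes. Knockdown and control were compared with limma 3.58.1 in R 4.3.3 (lmFit, eBayes, two-sided, no covariates, Benjamini-Hochberg over all genes, threshold 0.05). The 4 residual degrees of freedom limit the precision; the median SE was 0.096.

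The 8 genes and the 14 gene lists were chosen with earlier results of these data known. Of 268 listed entries 248 were measured. Genes named are the 8 genes, Rras2, up to 4 called genes with the largest differences per cytoskeletal, neuronal and glial list with up to 2 more called the other way, a set of named cytoskeletal and neuronal genes whatever their values, and the 3 most similar profiles per qualifying gene; other genes were chosen after their values were seen. The muscle and fibroblast lists are given as counts, and of their genes only Des and Vim, which are also on the filament list, have values. Alternatives were a second quantile normalization, median centring, cyclic loess, dropping the dimmest 30% of genes by mean, averaging probe sets, trend and robust eBayes, array weights, and leaving out each array. On simulated data for this comparison (19505 genes, 200 changed) limma recovered 30 of 67 genes changed by 0.5, 63 of 67 changed by 1 and 66 of 66 changed by 2, with 8 of 19305 unchanged genes called.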

Additional observations from a re-analysis of the deposited data

How the results depend on the processing

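No paired analysis was possible because the groups share no replicate numbers. For Nefl, Nefm, Stmn1 and Stmn2 the groups stayed apart in the same direction under the second quantile normalization, median centring and cyclic loess; the other alternatives could not make separate groups overlap. Over the 6 fits without 1 array the log2 difference ranged from -1.32 to -1.04 for Nefl, -2.06 to -1.42 for Nefm, 0.25 to 0.39 for Stmn1 and 2.16 to 2.30 for Stmn2. The near-zero differences of Nefh and Stmn3 kept their sign in 8 of 13 alternatives, and that of Ina in 11 of 12. Ina and Stmn4 were among the dim genes left out by the filter on low means, so they have no value there. That filter, averaging probe sets, and trend and robust eBayes could not change the difference of these genes, so signs kept under them show nothing. Rras2 passed throughout.

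Counts over all genes past the threshold ranged from 392 to 1136 without 1 array and were 1908 with trend and robust settings. Median centring moved the split of genes whose groups did not overlap from 2253 higher and 2720 lower to 1670 and 3627. Without 1 array the lists' counts of called genes ranged from 1 to 2 for other intermediate filaments, 0 to 2 for filament linkers, 1 to 4 for tubulins, 2 to 4 for microtubule-associated proteins, 0 to 3 for kinases and phosphatases, 0 to 0 for the REST list, 0 to 1 for glial markers and 1 to 6 for fibroblast markers. With trend and robust settings the counts were 2 for filament linkers and 5 for neuronal markers, all higher, and 1 for proliferation markers, lower. Tubulins gave 5 (3 higher and 2 lower) and microtubule-associated proteins 9 (6 higher and 3 lower). Kinases and phosphatases gave 3 (2 higher and 1 lower) and the REST list 2 (1 higher and 1 lower). Median centring gave 1 for other intermediate filaments, 0 for the REST list and 1 for proliferation markers, the last also 1 under a second quantile normalization, the filter on low means and array weights. The kinase count was 0 with cyclic loess and 2 with the filter and with array weights, and the REST count was 0 when probe sets were averaged. The cause was not tested. The dim range limits what can be said of Nefl, Ina and Stmn4.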
